A study of Mus musculus with 16 samples.

Results

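The 9 genes described here act in gluconeogenesis or glycolysis, and their transcripts were followed across 16 libraries of mouse kidney RNA. The 3 gluconeogenic genes were Pck1, Fbp1 and Pcx, and the 6 glycolytic genes were Hk1, Hk2, Pfkp, Pfkfb3, Pkm and Ldha. They were taken by symbol from the deposited matrix of 20525 genes, each symbol matched 1 row, and all 9 passed the filter on low values. The 4 groups, with 4 libraries each, were glycerol-injected mice labelled C3-/-, PBS-injected mice labelled C3-/-, glycerol-injected wild-type (WT) mice and PBS-injected WT mice, all aged 8 weeks and on the background that the labels spell C56BL/6. The C3-/- genotype targets complement component C3, and the labels do not say how the allele was made or whether animals were pooled. Glycerol, at 7.5 ml/kg of a 50% solution, was given by injection into a thigh muscle to cause rhabdomyolysis, the breakdown of skeletal muscle, and with it acute kidney injury. RNA came from lysed frozen sections 30 µm thick, so every value is a mixture of all cell types of the kidney. The labels give no time between injection and collection.

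The kidney makes glucose from lactate, glutamine and glycerol, mainly in the proximal tubule. Pcx (pyruvate carboxylase) turns pyruvate into oxaloacetate, Pck1 (cytosolic phosphoenolpyruvate carboxykinase) turns oxaloacetate into phosphoenolpyruvate, and Fbp1 (fructose-1,6-bisphosphatase) removes a phosphate that phosphofructokinase would add. Glycolysis runs the other way: hexokinases (Hk1, Hk2) trap glucose, phosphofructokinase (Pfkp is its platelet-type subunit) commits it, Pfkfb3 makes the fructose-2,6-bisphosphate that activates phosphofructokinase and inhibits Fbp1, Pkm makes pyruvate and Ldha makes lactate.

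Values are read counts that the authors normalized with DESeq2, called normalized counts here, and their sum per library ran between 25810749 and 38388663. The size of 1 read could not be recovered, so sequencing depth is unknown and the precision rests on the spread between libraries. Nothing in the labels says that libraries of a group came from separate animals, so that spread may be technical. Both groups labelled C3-/- mix libraries with and without Y-linked transcripts, described below, so the libraries of either group did not all come from a single animal. Each library name carries a sheet number, and 3 libraries (glycerol libraries 1 and 3 labelled C3-/-, and WT glycerol library 4) repeat numbers given to others, so they are treated as a second list. They stood apart on the first principal component, which held 45% of the variance, with scores of 144, 96.4 and 220 against -58.6 to 39.5 in the other 13. WT glycerol library 4 also had 3374 genes of the matrix at 0, against 190 to 982 in every other library. Y-linked transcripts were at a mean log2 level of 9.17 to 10.5 in all WT libraries and in 3 labelled C3-/- (PBS library 4, glycerol libraries 3 and 4), and at 0 to 0.71 in the other 5. C3 itself had 8008, 1457, 5495 and 1587 normalized counts in glycerol libraries labelled C3-/- and 819, 1140, 860 and 564 in PBS libraries labelled C3-/-, against 3729, 1712, 2783 and 4718 in WT glycerol libraries and 335, 361, 471 and 425 in WT PBS libraries. The C3 count thus did not separate the genotypes in the direction of the label, so the genotype rests on the labels alone in every comparison below. For the 9 genes a value without the second list is given wherever it changes a call. That fit keeps only 2 glycerol libraries labelled C3-/- (numbers 2 and 4, of which 4 carried Y-linked transcripts) and 3 WT glycerol libraries.

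**Figure D1:**
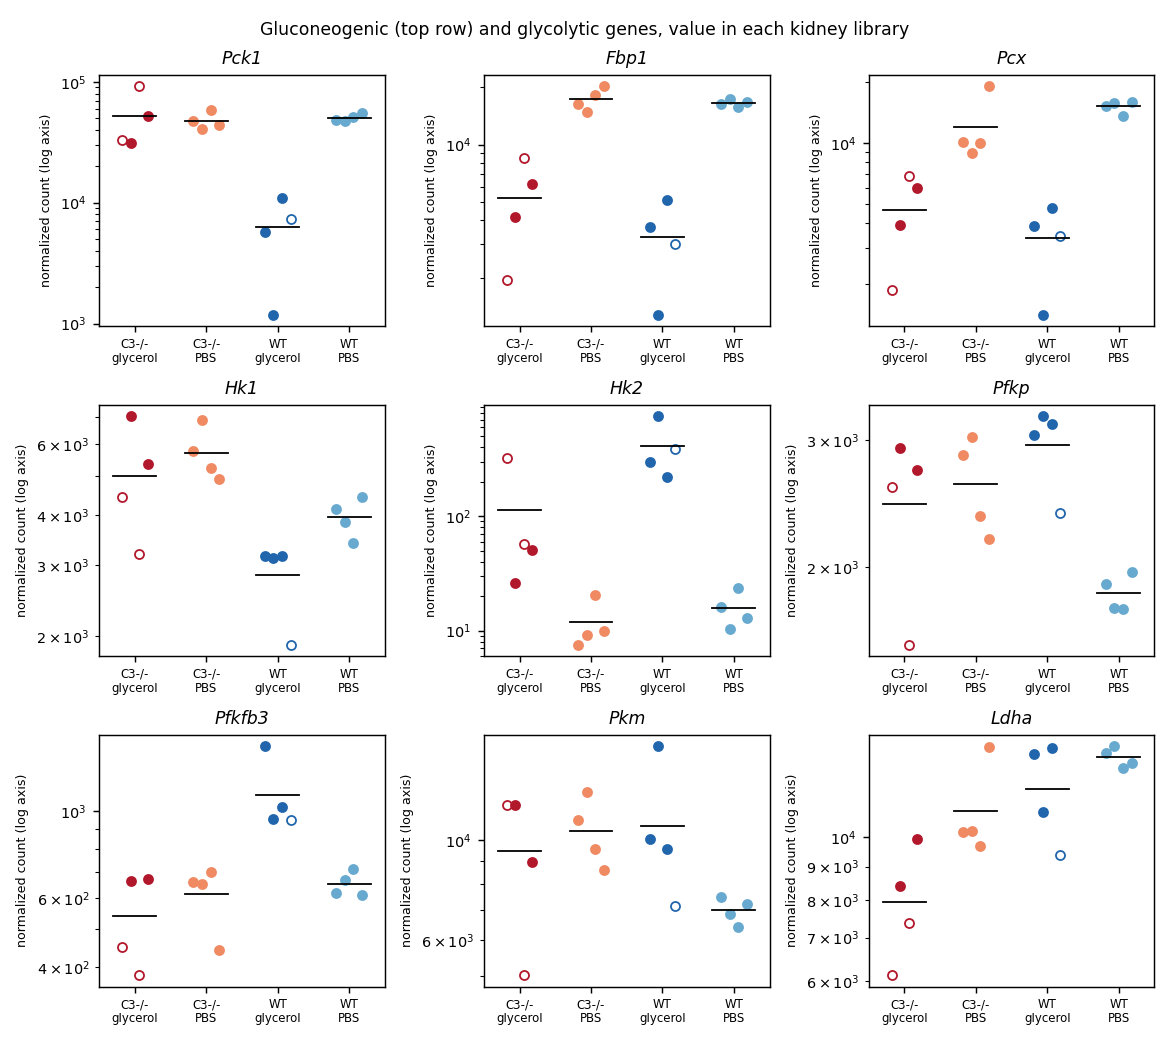
Normalized counts of the 9 genes in each of the 16 libraries (log axes), by group, with the group mean as a black line and the 3 libraries of the second list as open circles. Pck1 in WT glycerol libraries lay between 1183 and 10950, below every library of the other 3 groups, while Hk2 lay between 218 and 749 in WT glycerol libraries.

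In WT kidneys glycerol was followed by a fall of all 3 gluconeogenic genes and a rise of Hk2, Pfkp and Pfkfb3. Pck1 had 5771, 1183, 10950 and 7334 normalized counts in WT glycerol libraries, against 48452, 47396, 51121 and 55549 in WT PBS libraries. The groups did not overlap, and the mean after glycerol was 12.5% of that after PBS. The log2 difference was -3.38 ± 0.53 (SE; limma over all genes, Benjamini-Hochberg adjusted p = 0.000365), and -2.71 without WT glycerol library 2 (adjusted p = 0.000169). Fbp1 had 3676, 1276, 5121 and 3002 normalized counts in WT glycerol libraries, against 16409, 17356, 15681 and 16744 in WT PBS libraries. Pcx had 3856, 1411, 4755 and 3455 in WT glycerol libraries, against 15229, 15781, 13647 and 15928 in WT PBS libraries. Both genes were lower in every WT glycerol library than in any WT PBS library, and library 2 was the lowest and library 3 the highest of the glycerol group for these genes and for Pck1. Fbp1 fell by 2.50 on the log2 scale (SE 0.42, limma adjusted p = 0.00062) and Pcx fell by 2.30 (SE 0.41, limma adjusted p = 0.00103).

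Hexokinase 2 showed the opposite direction. Hk2 had 297, 749, 218 and 386 normalized counts in WT glycerol libraries, against 16.2, 10.4, 23.4 and 12.8 in WT PBS libraries. The groups were far apart, and library 2, the lowest for Pck1, Fbp1 and Pcx, was the highest for Hk2. Hk2 rose by 4.53 ± 0.62 on the log2 scale (limma adjusted p = 0.000129), the largest change among the 9 genes. Hk1, the widely expressed hexokinase, had 3169, 3130, 3168 and 1900 in WT glycerol libraries, against 4131, 3839, 3402 and 4423 in WT PBS libraries. Its groups did not overlap and lay in the other direction from Hk2, with a log2 difference of -0.50 ± 0.23 that was not called (limma adjusted p = 0.129).

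At the phosphofructokinase step, Pfkp had 3043, 3235, 3159 and 2379 normalized counts in WT glycerol libraries, against 1894, 1755, 1749 and 1971 in WT PBS libraries. Pfkfb3 had 1467, 955, 1024 and 953 in WT glycerol libraries, against 618, 667, 713 and 611 in WT PBS libraries. All WT glycerol libraries exceeded all WT PBS libraries for both genes, library 4 being the lowest for Pfkp and library 1 the highest for Pfkfb3. Pfkp rose by 0.67 ± 0.19 on the log2 scale (limma adjusted p = 0.0181) and Pfkfb3 rose by 0.73 ± 0.22 (limma adjusted p = 0.022). The call for Pfkp was lost without WT glycerol library 2 (adjusted p = 0.0504), and that for Pfkfb3 without WT glycerol library 1 (0.0676), WT PBS library 1 (0.0571) or WT PBS library 4 (0.0574).

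Pkm and Ldha, at the lower end of glycolysis, were not called in the fit of all 16 libraries. Pkm had 10048, 16188, 9576 and 7145 normalized counts in WT glycerol libraries, against 7470, 6844, 6428 and 7216 in WT PBS libraries. Only library 4, of the second list, overlapped the PBS range, and library 2 was the highest. The log2 difference of Pkm was 0.56 ± 0.28 (limma adjusted p = 0.158). Without the second list it was 0.73 and called (adjusted p = 0.00485). Ldha had 13440, 10936, 13720 and 9368 in WT glycerol libraries, against 13487, 13786, 12772 and 13007 in WT PBS libraries, with a log2 difference of -0.18 ± 0.18 (limma adjusted p = 0.5). For Ldha WT glycerol libraries 1 and 3 lay inside the narrow PBS range and libraries 2 and 4 below it.

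Together 6 of the 9 genes were called in WT kidneys, 3 higher and 3 lower, where 25.9% of the 18035 genes tested were called, 12.5% higher and 13.3% lower. The median log2 difference was -2.50 over the 3 gluconeogenic genes and 0.62 over the 6 glycolytic genes, beside -0.11 over all genes tested. Of the 9 genes 7 had groups that did not overlap, beside 40.6% of all genes. Without the second list 7 of the 9 were called, where 56.2% of genes were. Tubule markers moved in the same comparison: the summed normalized count of 10 proximal tubule markers was 45742 to 185562 in WT glycerol libraries and 433739 to 497684 in WT PBS libraries, and 7 of the 10 were called lower. Of 8 markers for loop of Henle and distal tubule cells 6 were lower, and so were 5 of 8 collecting duct markers, which summed to 6852 to 10836 in WT glycerol libraries and 16256 to 19658 in WT PBS libraries. The 5 neutrophil markers in the matrix summed to 494 to 1133 in WT glycerol libraries and 144 to 224 in WT PBS libraries, with 3 called higher, while Ly6g, Mpo and Elane were not among the genes analysed. The part of these markers in the results for the 9 genes was not tested, and in such mixed tissue fewer cells of a type and less RNA per cell cannot be told apart.

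The promoters of genes that were called in WT kidneys and have a single RefSeq start are shown because they include the most reduced gene (Pck1) and the most increased gene (Hk2) of the 9. Each is the 250 bases before the start on build GRCm38.p6, read 5′ to 3′ on the strand of the gene, and capitals mark matches to the motifs searched on both strands.
Pck1, chr2:173152823-173153072, plus strand: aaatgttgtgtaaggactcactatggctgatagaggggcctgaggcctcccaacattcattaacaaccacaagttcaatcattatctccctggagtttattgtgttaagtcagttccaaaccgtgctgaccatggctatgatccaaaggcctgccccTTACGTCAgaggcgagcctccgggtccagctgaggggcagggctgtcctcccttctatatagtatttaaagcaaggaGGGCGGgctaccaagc
Fbp1, chr13:62888283-62888532, minus strand: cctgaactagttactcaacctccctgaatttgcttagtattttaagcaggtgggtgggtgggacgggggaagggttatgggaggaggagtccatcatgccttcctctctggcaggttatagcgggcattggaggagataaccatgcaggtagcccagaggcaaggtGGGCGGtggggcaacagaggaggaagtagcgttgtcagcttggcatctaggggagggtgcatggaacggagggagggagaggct
Hk2, chr6:82774455-82774704, minus strand: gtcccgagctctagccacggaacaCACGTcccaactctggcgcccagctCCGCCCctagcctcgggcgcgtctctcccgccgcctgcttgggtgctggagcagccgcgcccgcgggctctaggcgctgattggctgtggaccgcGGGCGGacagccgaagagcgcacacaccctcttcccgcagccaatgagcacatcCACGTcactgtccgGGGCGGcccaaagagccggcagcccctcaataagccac
Pfkp, chr13:6648772-6649021, minus strand: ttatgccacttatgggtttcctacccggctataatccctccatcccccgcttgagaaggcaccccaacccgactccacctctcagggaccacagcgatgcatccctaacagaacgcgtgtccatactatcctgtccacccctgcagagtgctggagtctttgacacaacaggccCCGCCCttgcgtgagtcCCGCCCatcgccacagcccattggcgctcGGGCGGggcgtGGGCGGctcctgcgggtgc
The Pck1 window held TTACGTCA, a variant of the cAMP response element, 93 to 86 bases before the start, a motif present in 0.447% of 32851 promoter windows of the same length. It also held the GC box GGGCGG at 16 to 11 bases, a motif in 32.7% of windows. Fbp1 held GGGCGG at 84 to 79 bases. Hk2 held ACGTG, the core of the hypoxia response element and a motif in 16.6% of windows, in 2 places on the opposite strand, printed as CACGT, 226 to 222 and 52 to 48 bases before the start, together with 3 GC boxes. Pfkp held 4 GC boxes, 2 of them on the opposite strand, printed as CCGCCC. The palindrome TGACGTCA (1.55% of windows), the E-box CACGTG, which contains ACGTG (6.02%), and TATAAA (12.4%) were also searched and had no match in these 4 windows. The genes with 2 windows, not printed, were searched too. ACGTG was held by Pcx, Pfkfb3, Pkm and Ldha, CACGTG by Pcx, Pfkfb3 and Ldha, and TGACGTCA by Ldha, while Hk1 had no match to any motif. ACGTG thus stood before genes called lower, called higher and not called in WT kidneys. A match describes the letters of the window and was not tested against any measurement of binding.

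In kidneys labelled C3-/- glycerol was followed by a fall of Fbp1 and a rise of Hk2, while no change of Pck1 was called. Pck1 had 32746, 31421, 92432 and 52076 normalized counts in glycerol libraries labelled C3-/-, against 47583, 40690, 58837 and 43640 in PBS libraries labelled C3-/-. The glycerol libraries lay on both sides of the PBS range, with libraries 1 and 2 below it and library 3 above it. The log2 difference was 0.00 ± 0.53 (limma adjusted p = 0.999), and -0.22 without the second list (adjusted p = 0.83). The missed threshold does not show that Pck1 was unaffected, given an SE of this size.

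Fbp1 and Pcx, in contrast, were low in every glycerol library labelled C3-/-. Fbp1 had 1948, 4153, 8512 and 6224 normalized counts in glycerol libraries labelled C3-/-, against 16403, 14811, 18214 and 20322 in PBS libraries labelled C3-/-. Pcx had 1860, 3914, 6853 and 5948 in glycerol libraries labelled C3-/-, against 10054, 8933, 9921 and 19105 in PBS libraries labelled C3-/-. Neither gene's groups overlapped, and library 1 was the lowest of the glycerol group for both. Fbp1 fell by 1.93 on the log2 scale (SE 0.42, limma adjusted p = 0.0136). Pcx had a log2 difference of -1.46 ± 0.41 that just missed the threshold (limma adjusted p = 0.051). It was called without WT glycerol library 2 (0.0257), WT glycerol library 4 (0.0328), glycerol library 3 labelled C3-/- (0.0272) or glycerol library 4 labelled C3-/- (0.0388), and without the whole second list (0.0466). In the authors' deposited table, made with DESeq2, it had a log2 fold change of -1.37 and an adjusted p of 0.00992.

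Among the glycolytic genes Hk2 alone was called after glycerol in kidneys labelled C3-/-. It had 321, 25.9, 57.1 and 50.8 normalized counts in glycerol libraries labelled C3-/-, against 7.5, 9.2, 20.6 and 10 in PBS libraries labelled C3-/-. The groups did not overlap, and library 1, of the second list, was far above the other 3. Hk2 rose by 2.58 ± 0.62 on the log2 scale (limma adjusted p = 0.0237), and by 1.64 without the second list (adjusted p = 0.0356). The call was lost without PBS library 1 (0.0816), 2 (0.0733) or 4 (0.0552) labelled C3-/-. At the phosphofructokinase step the groups overlapped for both genes. Pfkp had 2584, 2924, 1560 and 2726 in glycerol libraries labelled C3-/-, against 2855, 3026, 2352 and 2188 in PBS libraries labelled C3-/- (log2 difference -0.12 ± 0.19, limma adjusted p = 0.698). Pfkfb3 had 450, 662, 381 and 673 in glycerol libraries labelled C3-/-, against 660, 651, 702 and 441 in PBS libraries labelled C3-/- (-0.20 ± 0.22, limma adjusted p = 0.545). Library 3 was the lowest of the glycerol group for both.

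Hk1, Pkm and Ldha had no call either. Hk1 had 4435, 7038, 3196 and 5365 normalized counts in glycerol libraries labelled C3-/-, against 5774, 6898, 5224 and 4908 in PBS libraries labelled C3-/- (log2 difference -0.23 ± 0.23, limma adjusted p = 0.511). Pkm had 12007, 11959, 5013 and 8950 in glycerol libraries labelled C3-/-, against 11086, 12790, 9543 and 8589 in PBS libraries labelled C3-/- (-0.21 ± 0.28, limma adjusted p = 0.62). Glycerol library 3, of the second list, was the lowest for both, and without that list the log2 difference was 0.12 for Hk1 and -0.01 for Pkm. Ldha had 6127, 8393, 7364 and 9910 in glycerol libraries labelled C3-/-, against 10158, 10212, 9696 and 13767 in PBS libraries labelled C3-/-. A single glycerol library, number 4, reached the PBS range, and the log2 difference was -0.47 ± 0.18 (limma adjusted p = 0.139).

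Hence 2 of the 9 genes were called in kidneys labelled C3-/-, where 5.63% of the genes tested were called. Fbp1, Pcx and Hk2 had groups that did not overlap, 3 of the 9 genes, beside 19.2% of all genes. Without the second list 3 of the 9 were called (the same genes, Fbp1, Pcx and Hk2), where 23.3% of genes were. The median log2 difference was -1.46 over the gluconeogenic and -0.20 over the glycolytic genes, beside -0.06 over all genes tested. The summed count of the 10 proximal tubule markers was 78771 to 367521 in glycerol libraries labelled C3-/- and 316984 to 541777 in PBS libraries labelled C3-/-. None of the 10 was called by limma (6 had an unadjusted p below 0.05, all lower). In either direction 4457 of the 18035 genes tested had an unadjusted p below 0.05. The 5 neutrophil markers summed to 67.9 to 226 in glycerol libraries and 30.4 to 50.0 in PBS libraries labelled C3-/-. Erythroid markers summed to 15819 to 19474 in glycerol libraries and 3330 to 7825 in PBS libraries labelled C3-/-, with 3 of 5 called higher. The part of these markers was not tested.

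**Figure D2:**
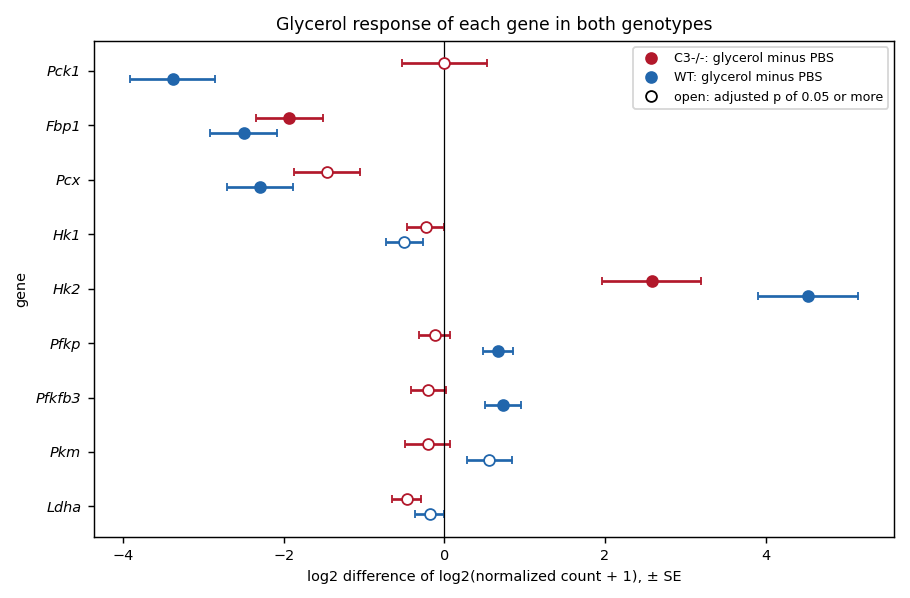
Log2 difference of glycerol minus PBS for each of the 9 genes, with its SE as a bar, in kidneys labelled C3-/- (red, upper of each pair) and WT kidneys (blue, lower); filled symbols are genes with an adjusted p below 0.05. Pck1 lies at 0.00 in kidneys labelled C3-/- and at -3.38 in WT kidneys, while Fbp1 lies left of 0 and Hk2 right of 0 in both.

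After glycerol the genotypes were compared directly, using the same glycerol libraries as the comparisons above. For Pck1 the 4 glycerol libraries labelled C3-/-, at 31421 to 92432 normalized counts, all exceeded the 4 WT glycerol libraries, at 1183 to 10950. Pck1 averaged 52169 ± 28454 in the libraries labelled C3-/- and 6309 ± 4048 in WT (SD, n = 4 each). The log2 difference was 3.28 ± 0.53 (limma adjusted p = 0.000974), 3.26 without the second list (adjusted p = 0.00285) and 2.61 without WT glycerol library 2 (adjusted p = 0.000331). The other gluconeogenic genes were not called. Fbp1 averaged 5209 ± 2810 in glycerol libraries labelled C3-/- and 3269 ± 1596 in WT glycerol libraries, with overlapping groups and a log2 difference of 0.64 ± 0.42 (limma adjusted p = 0.375). Pcx averaged 4644 ± 2226 in glycerol libraries labelled C3-/- and 3369 ± 1414 in WT glycerol libraries, also overlapping, with a log2 difference of 0.43 ± 0.41 (limma adjusted p = 0.567).

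Of the glycolytic genes 3 were called between the genotypes after glycerol. Hk2 averaged 114 ± 139 normalized counts in glycerol libraries labelled C3-/- and 413 ± 234 in WT glycerol libraries. Library 1 labelled C3-/-, at 321, lay inside the WT range of 218 to 749, and the other 3 lay below it. The log2 difference was -2.38 ± 0.62 (limma adjusted p = 0.0208), and -3.29 without the second list (adjusted p = 0.000909). This call was lost without WT glycerol library 2 (0.0764) or without glycerol library 2 (0.0586) or 3 (0.0564) labelled C3-/-. Pfkfb3 averaged 542 ± 148 in glycerol libraries labelled C3-/- and 1100 ± 247 in WT glycerol libraries, with no overlap. Its log2 difference was -1.04 ± 0.22 (limma adjusted p = 0.00583), and the call held in all 16 fits that left out 1 library. Hk1 was the only glycolytic gene called higher: it averaged 5009 ± 1619 in glycerol libraries labelled C3-/- and 2842 ± 628 in WT glycerol libraries. Its groups touched without overlapping, at 3196 and above in libraries labelled C3-/- and at 3169 and below in WT.

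The log2 difference of Hk1 was 0.79 ± 0.23 (limma adjusted p = 0.0391), a call that 11 of the 16 fits without 1 library lost. Those were the fits without glycerol library 2 (0.101) or 4 (0.0752) labelled C3-/-, PBS library 1 (0.0555) or 3 (0.0545) labelled C3-/-, WT glycerol library 1 (0.0567), 2 (0.0607) or 4 (0.055), and WT PBS library 1 (0.0552), 2 (0.056), 3 (0.0514) or 4 (0.0527). Without the second list the adjusted p for Hk1 was 0.000783. Ldha averaged 7949 ± 1603 in glycerol libraries labelled C3-/- and 11866 ± 2083 in WT glycerol libraries. A single library labelled C3-/-, number 4, entered the WT range, and the log2 difference of -0.58 ± 0.18 missed the threshold (limma adjusted p = 0.055). Ldha was called lower without the second list (0.0332), without WT glycerol library 4 (0.0164), without glycerol library 4 labelled C3-/- (0.0273) or without PBS library 4 labelled C3-/- (0.0491), and the authors' deposited table gave it a log2 fold change of -0.58 and an adjusted p of 0.0127. Pfkp had a log2 difference of -0.30 ± 0.19 (limma adjusted p = 0.365) and Pkm one of -0.20 ± 0.28 (limma adjusted p = 0.721), both with overlapping groups.

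In all, 4 of the 9 genes were called between the genotypes after glycerol, 2 higher and 2 lower in libraries labelled C3-/-, where 11.2% of genes were called, 6.38% higher and 4.85% lower. Groups did not overlap for 3 of the 9 (Pck1, Hk1 and Pfkfb3), beside 11.3% of all genes, and 5 of the 9 were called without the second list, where 30.4% of genes were. Of the 5 neutrophil markers tested 4 were lower in libraries labelled C3-/-, and 4 of 8 markers for loop of Henle and distal tubule cells and 5 of 8 collecting duct markers were higher. None of the 10 proximal tubule markers was called by limma (4 had an unadjusted p below 0.05, as did 4437 of the 18035 genes tested). The part of these markers was not tested. Genotype and the Y-linked signal were unevenly spread, since every WT glycerol library and only libraries 3 and 4 of the glycerol group labelled C3-/- carried it. With list number and Y-linked level as terms in the fit, 8 of the 9 genes were called where 33.4% of all genes were, Pkm being the exception, and the Pck1 difference was 3.42 (adjusted p = 0.000675). The same terms gave 8 of the 9 in WT kidneys (48.9% of all genes), 4 in kidneys labelled C3-/- (18.5%) and 3 in the interaction described below (8.36%).

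**Figure D3:**
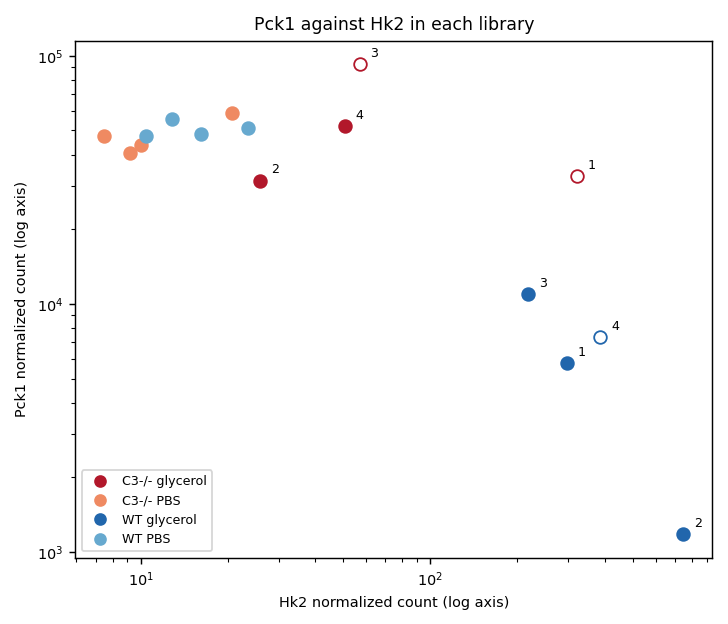
Normalized count of Pck1 (vertical, log axis) against that of Hk2 (horizontal, log axis), 1 point per library, with glycerol libraries numbered and those of the second list open. WT glycerol libraries lie at the lower right, glycerol libraries labelled C3-/- lie at 31421 or more for Pck1, and all PBS libraries lie at the upper left with Hk2 at 7.5 to 23.4.

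Between the genotypes after PBS none of the 9 genes was called by limma, where 2.23% of all genes were called. An unadjusted p below 0.05 was found for 2 of the 9 and for 1884 of the 18035 genes tested. Hk1 averaged 5701 ± 875 normalized counts in PBS libraries labelled C3-/- and 3949 ± 436 in WT PBS libraries (log2 difference 0.52 ± 0.23, limma adjusted p = 0.417). Pfkp averaged 2605 ± 399 in PBS libraries labelled C3-/- and 1842 ± 109 in WT PBS libraries (0.49 ± 0.19, limma adjusted p = 0.303). Pkm averaged 10502 ± 1840 in PBS libraries labelled C3-/- and 6989 ± 454 in WT PBS libraries (0.57 ± 0.28, limma adjusted p = 0.519). For these 3 genes every library labelled C3-/- exceeded every WT library, as it did for 13.9% of all genes. Without the second list, which holds no PBS library but widens the shared spread, all 3 were called (adjusted p of 0.0101, 0.00487 and 0.0347), where 19.5% of genes were called. With list number and Y-linked level as terms limma called none of the 9 after PBS, where 3.28% of genes were called. Markers of blood cells moved in the same comparison. Of 5 erythroid markers tested 4 were lower in libraries labelled C3-/-, and the erythroid list summed to 3330 to 7825 in PBS libraries labelled C3-/- and 13847 to 22607 in WT PBS libraries. Of 5 neutrophil markers 2 were lower, with sums of 30.4 to 50.0 in PBS libraries labelled C3-/- and 144 to 224 in WT PBS libraries. The part of these markers was not tested, and none of the proximal tubule, loop of Henle and distal tubule or collecting duct markers was called by limma.

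Among the gluconeogenic genes Pck1 averaged 47688 ± 7951 in PBS libraries labelled C3-/- and 50629 ± 3635 in WT PBS libraries. Fbp1 averaged 17437 ± 2373 in PBS libraries labelled C3-/- and 16547 ± 698 in WT PBS libraries. Both overlapped, with log2 differences of -0.10 ± 0.53 and 0.07 ± 0.42. Pcx averaged 12003 ± 4761 in PBS libraries labelled C3-/- and 15146 ± 1044 in WT PBS libraries. PBS library 4, the only PBS library labelled C3-/- with Y-linked transcripts, was the highest of its group for Pcx, at 19105, and for Ldha, at 13767. The same library was the lowest of its group for Hk1, Pfkp, Pfkfb3 and Pkm.

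The interaction asks whether the glycerol response itself differed by genotype, and gives the response in kidneys labelled C3-/- minus that in WT kidneys. By limma none of the 9 genes was called, where 0.438% of genes were. An unadjusted p below 0.05 was found for 4 of the 9 (Pck1, Hk2, Pfkp and Pfkfb3) and for 1889 of the 18035 genes tested. Pck1 came closest, at 3.38 ± 0.74 on the log2 scale (adjusted p = 0.0643). It was called without the second list (0.0238, where 10.4% of genes were called) and without WT glycerol library 2 (0.0294), 3 (0.0307) or 4 (0.0401) or glycerol library 1 labelled C3-/- (0.0476). Hk2 had an interaction of -1.96 ± 0.87 (limma adjusted p = 0.452), which was -2.87 and called without the second list (0.0219). Pfkp had one of -0.79 ± 0.27 (limma adjusted p = 0.259), which was -0.64 and called without the second list (0.0247). For Fbp1 the value was 0.58 ± 0.59 (limma adjusted p = 0.886) and for Pcx 0.84 ± 0.58 (limma adjusted p = 0.734). No difference between the genotypes in the response of Fbp1 or Pcx was detected at this spread. The interaction was -0.93 ± 0.31 for Pfkfb3 (limma adjusted p = 0.227), -0.77 ± 0.40 for Pkm, -0.29 ± 0.26 for Ldha and 0.27 ± 0.33 for Hk1.

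Ratios between isoenzymes within a library, with 1 added to each count, are given as descriptions with no test. They depend little on scaling between libraries, except where a count is low, as that of Hk2 was after PBS. The ratio of Hk2 to Hk1 counts was 0.0692 to 0.239 in WT glycerol libraries and 0.00298 to 0.00717 in WT PBS libraries, with no overlap. It was 0.00382 to 0.0726 in glycerol libraries and 0.00147 to 0.00413 in PBS libraries labelled C3-/-, where the ranges overlapped through glycerol library 2, the lowest of its group, and PBS library 3, the highest of its group. Pfkp to Pfkl, the liver-type subunit, was 1.75 to 2.29 in WT glycerol libraries and 1.17 to 1.22 in WT PBS libraries. In libraries labelled C3-/- the same ratio was 1.04 to 1.47 after glycerol and 1.16 to 1.32 after PBS. Every WT glycerol library thus had a higher Pfkp to Pfkl ratio than any of the other 12 libraries.

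Pck1 to Pck2, the mitochondrial enzyme, was 2.21 to 18.03 in WT glycerol libraries and 103 to 140 in WT PBS libraries. It was 28.8 to 102 in glycerol libraries and 72.5 to 118 in PBS libraries labelled C3-/-. Pck2 itself rose after glycerol in both genotypes, by 0.78 ± 0.21 on the log2 scale in kidneys labelled C3-/- (limma adjusted p = 0.0379) and by 0.68 ± 0.21 in WT kidneys (limma adjusted p = 0.0246). The call for Pck2 was lost without any 1 of 3 libraries in WT kidneys (WT glycerol library 4, WT PBS library 2 or 4; adjusted p of 0.0566, 0.0644 and 0.0653) and, in kidneys labelled C3-/-, without any 1 of the 8 PBS libraries, WT glycerol library 1 or glycerol library 1 or 3 labelled C3-/- (adjusted p of 0.0524 to 0.121).

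For Ldha to Ldhb, the subunit that favours pyruvate, the second list mattered. Its 3 libraries had ratios of 0.142, 0.1497 and 0.319, the lowest of all 16. In the remaining glycerol libraries the ratio was 0.506 and 0.617 in those labelled C3-/- and 0.663 to 0.908 in WT, against 0.368 to 0.512 in PBS libraries labelled C3-/- and 0.494 to 0.573 in WT PBS libraries. Pkm to Pklr, the liver and red cell pyruvate kinase, varied widely after glycerol, at 4.35 to 36.3 in glycerol libraries labelled C3-/- and 4.76 to 42.2 in WT glycerol libraries, against 7.03 to 12.1 in PBS libraries labelled C3-/- and 7.35 to 10.1 in WT PBS libraries. These ranges overlapped in every comparison.

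**Figure D4:**
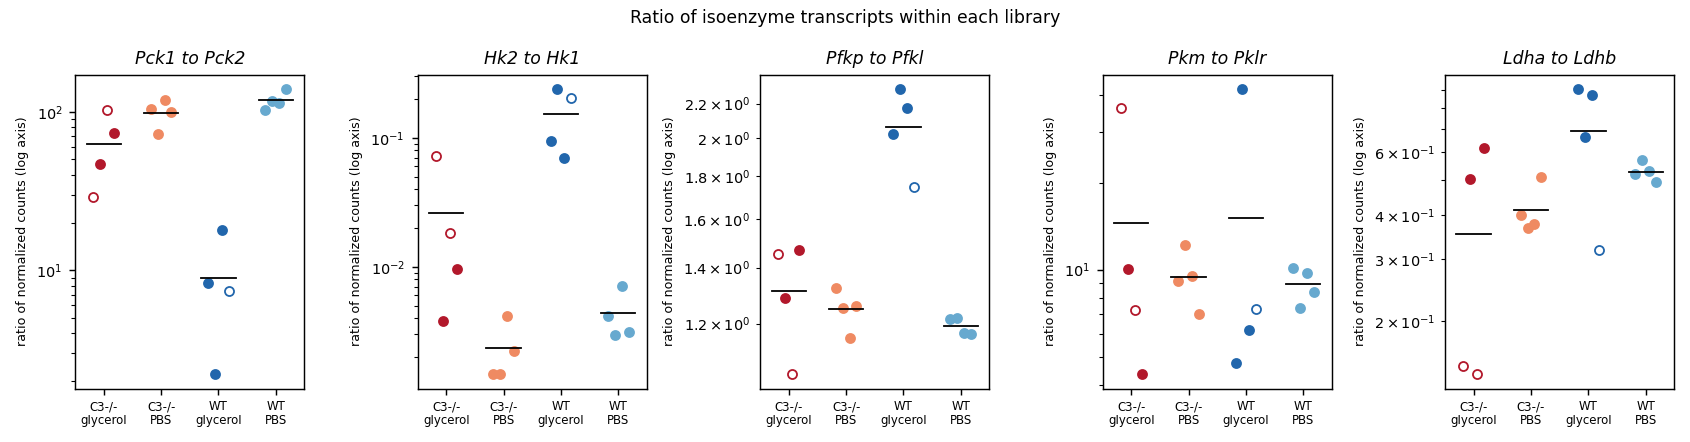
Ratio of normalized counts, each with 1 added, of 5 isoenzyme pairs in each of the 16 libraries (log axes), by group, with the group mean as a black line and libraries of the second list open. Pfkp to Pfkl is 1.75 to 2.29 in WT glycerol libraries and at most 1.47 elsewhere, and the 3 open points are the lowest for Ldha to Ldhb.

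Per kilobase of annotated exon sequence, which allows levels of different genes to be set side by side, Pck1 was the highest of the 9 genes after PBS. It averaged 13907 ± 2319 normalized counts per kilobase in PBS libraries labelled C3-/- and 14765 ± 1060 in WT PBS libraries. Next came Fbp1, at 10245 ± 1394 in PBS libraries labelled C3-/- and 9722 ± 410 in WT PBS libraries. Ldha followed at 3311 ± 570 in PBS libraries labelled C3-/- and 4007 ± 138 in WT PBS libraries, with Pcx at 2525 ± 1002 and 3187 ± 220 in the same groups. Hk2 was the lowest, at 1.98 ± 1.00 in PBS libraries labelled C3-/- and 2.63 ± 0.95 in WT PBS libraries.

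After glycerol the order of levels per kilobase was another in WT kidneys. There Ldha averaged 3585 ± 629, Pkm 2147 ± 770, Fbp1 1920 ± 938 and Pck1 1840 ± 1180 normalized counts per kilobase, and the last 3 did not differ beyond their SDs. In glycerol libraries labelled C3-/- Pck1 was the highest, at 15214 ± 8298, followed by Fbp1 at 3061 ± 1651 and Ldha at 2401 ± 484, of which the last 2 did not differ beyond their SDs. Despite its rise, Hk2 reached 69.1 ± 39.3 in WT glycerol libraries, below Hk1 at 333 ± 73.6. Exon length was taken as the union of all annotated exons, so isoforms of unequal length limit these levels. In the annotation Hk1 overlaps Hk1os and Pfkp overlaps Pitrm1 on the opposite strand, and Ldha has 2 named pseudogenes. Reads may be shared with these, since no source used here gives the strand setting of the counting.

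The remaining genes of the pathway were described through lists of 100 genes, of which 99 were tested. In WT kidneys 44 of them were called after glycerol, where 25.9% of all genes tested were called, and 68 without the second list, where 56.2% were. Of 10 other gluconeogenesis genes 4 fell and 1 (Pck2) rose, with a median log2 difference of -0.22. G6pc, the catalytic subunit that releases free glucose, averaged 972 ± 960 normalized counts in WT glycerol libraries and 13419 ± 1004 in WT PBS libraries and fell by 4.51 on the log2 scale (SE 0.70, limma adjusted p = 0.000362), with differences of -5.17 to -3.69 when any 1 library was left out. Its partner, the glucose-6-phosphate transporter Slc37a4, fell by 2.37 (SE 0.40), and the malate shuttle genes Mdh1 and Slc25a11 had log2 differences of -1.85 ± 0.32 and -0.86 ± 0.18, both called lower.

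Of 22 other glycolysis genes tested in WT kidneys 3 rose and 2 fell, with a median of 0.00. Hkdc1, a hexokinase domain protein, rose by 1.59 ± 0.26 on the log2 scale and Eno2, the neuronal-type enolase, by 2.13 ± 0.45, while the muscle-type phosphofructokinase Pfkm fell by 1.56 (SE 0.19) and Aldoc, an aldolase, fell by 2.05 (SE 0.41). The 5 calls among these 22 genes are near the share of all genes called, 25.9%, and no result about the list is read from them. Gapdh, named after its values were seen, had 144839, 127557 and 167248 normalized counts in the second list and 27529 to 36746 in the other 13 libraries.

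Of 19 pyruvate and lactate genes 10 fell and 2 rose in WT kidneys, with a median of -0.93. The lactate exporter Slc16a3 rose by 2.11 ± 0.32. Pdp2, a pyruvate dehydrogenase phosphatase, fell by 2.21 (SE 0.25), the kinase Pdk2 fell by 1.77 (SE 0.31), and Mpc1, a subunit of the mitochondrial pyruvate carrier, fell by 0.90 (SE 0.15). Of 9 glucose transport genes 4 fell and 1 rose (median -0.96). The 4 were Slc2a4 (-1.65 ± 0.26), Slc2a5 (-2.29 ± 0.41), Slc5a9 (-1.45 ± 0.31) and Slc5a2, the luminal glucose carrier of the proximal tubule (-2.09 ± 0.49), which also stands among the proximal tubule markers. Of 13 genes for glycerol and glutamine entry 3 fell and none was higher, called or at an unadjusted p below 0.05 in limma (median -0.58). The 3 were the glycerol channel Aqp3 (-2.0 ± 0.31), glycerol kinase Gk (-2.79 ± 0.47) and Gpd1 (-1.13 ± 0.32). Aqp3 also stands among the collecting duct markers. Gpd1 lost its call without WT glycerol library 2 (adjusted p = 0.0614). The 3 calls among the 13 genes of glycerol and glutamine entry are near the share of all genes called, 25.9%. No result about that list is read from them.

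Among 19 regulators 8 fell and 2 rose in WT kidneys (median -0.70). Myc averaged 1314 ± 350 normalized counts in WT glycerol libraries and 143 ± 21.5 in WT PBS libraries and rose by 3.17 ± 0.29. Ppargc1a, a coactivator of mitochondrial and gluconeogenic genes, fell by 2.05 (SE 0.30). Klf15, a Kruppel-like factor that regulates gluconeogenic genes, fell by 2.36 (SE 0.38), and Epas1, which encodes a hypoxia-inducible factor subunit, fell by 0.81 (SE 0.15). In the pentose phosphate pathway, which makes NADPH from glucose-6-phosphate, 4 of 7 genes rose and none was lower, called or at an unadjusted p below 0.05 in limma (median 0.86). They were Pgd (1.79 ± 0.20), G6pdx (1.69 ± 0.21), Taldo1 (1.29 ± 0.29) and Tkt (0.84 ± 0.23).

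In kidneys labelled C3-/- 14 of the 99 genes were called after glycerol, where 5.63% of all genes were called, and 32 without the second list, where 23.3% were. The pentose phosphate genes were called in the same direction as in WT kidneys, 4 of 7 higher with a median of 0.85, namely Pgd (1.65 ± 0.20), G6pdx (1.54 ± 0.21), Taldo1 (1.35 ± 0.29) and Tkt (0.85 ± 0.23). The call of Tkt was lost without any 1 of 12 libraries, namely the 8 PBS libraries, WT glycerol library 1 or 3 and glycerol library 1 or 3 labelled C3-/- (adjusted p of 0.0511 to 0.141). Of the regulators Myc rose by 3.01 ± 0.29 and Cebpb by 2.90 ± 0.53, and none was called lower by limma, although 8 of the 19 were lower at an unadjusted p below 0.05. In glycolysis Eno2 rose by 3.14 ± 0.45 and Pfkm fell by 0.81 (SE 0.19). The lactate carrier Slc5a12 fell by 4.09 (SE 0.71), Pdp2 fell by 1.25 (SE 0.25), Pdk3 fell by 0.68 (SE 0.15) and the fructose carrier Slc2a5 fell by 1.70 (SE 0.41). When the second list was left out, Slc5a12 fell by 2.59, Slc2a5 had a log2 difference of -1.06 (adjusted p = 0.0432) and Cebpb rose by 2.09 (adjusted p = 0.000185). Pfkm lost its call without PBS library 1 (0.0728), 2 (0.0749) or 3 (0.0573) or glycerol library 1 (0.0746) labelled C3-/-. Slc2a5 lost it without the same PBS libraries (0.0702, 0.0717 and 0.0624) or glycerol library 1 (0.0606), and Pdk3 without PBS library 1 (0.0512) or 3 (0.0625). Of the 10 other gluconeogenesis genes Pck2 alone was called, while 5 were lower and 2 higher at an unadjusted p below 0.05 in limma. Without the second list 2 of the 10 were called lower and 1 higher. G6pc was not called, but its groups did not overlap, at 936 to 5151 normalized counts in glycerol libraries and 8167 to 15832 in PBS libraries labelled C3-/-. It was called by limma without WT glycerol library 2 (adjusted p = 0.0207) or 3 (0.0497). Of the 13 genes of glycerol and glutamine entry limma called 0, and 4 were lower at an unadjusted p below 0.05. In either direction 4457 of the 18035 genes tested passed that unadjusted threshold in this comparison. Slc5a12, Pdk3 and Cebpb lay in the same directions in WT kidneys, with groups that did not overlap, as for 40.6% of all genes there. In WT glycerol and WT PBS libraries they averaged 856 ± 526 and 8146 ± 477 (Slc5a12), 709 ± 80.0 and 1008 ± 127.5 (Pdk3), and 1744 ± 1457 and 234.5 ± 52.4 (Cebpb).

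**Figure D5:**
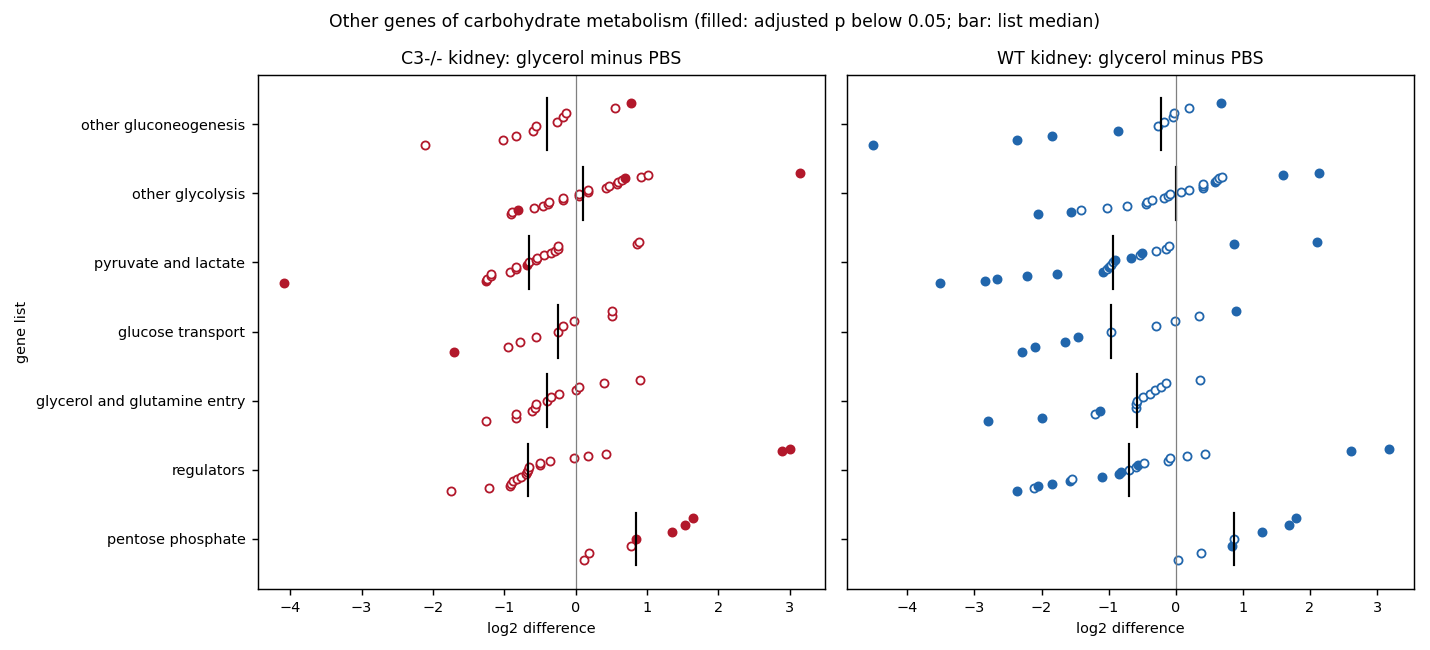
Log2 difference of glycerol minus PBS for each gene of the 7 pathway lists in kidneys labelled C3-/- and in WT kidneys, with filled symbols for an adjusted p below 0.05 and a black line at the median of a list. The pentose phosphate medians lie at 0.85 in kidneys labelled C3-/- and 0.86 in WT kidneys, and the regulators at -0.67 in kidneys labelled C3-/- and -0.70 in WT kidneys.

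Between the genotypes after glycerol 13 of the 99 genes were called, 12 higher and 1 lower in libraries labelled C3-/-. This share is near that of all genes, of which 11.2% were called, and no result about the pathway is read from it. There were 43 calls without the second list, where 30.4% of all genes were. Slc2a4 averaged 1283 ± 409 normalized counts in glycerol libraries labelled C3-/- and 323 ± 99.3 in WT glycerol libraries (log2 difference 1.99 ± 0.26, limma adjusted p = 0.000157). The glutamine transporter Slc38a3 (2.17 ± 0.30), Aqp3 (1.40 ± 0.31), Aldoc (2.74 ± 0.41), Pfkm (1.02 ± 0.19), Pdk2 (1.44 ± 0.31) and Klf15 (1.67 ± 0.38) were also higher in libraries labelled C3-/-, and Slc16a3 (-1.94 ± 0.32) was lower. Slc38a3 was also higher in every PBS library labelled C3-/- (1671 to 2076) than in any WT PBS library (644 to 886), as were 13.9% of all genes. That PBS difference was not called by limma in the fit of all 16 libraries, but was in 5 fits without 1 library (adjusted p of 0.0168 to 0.0477). The difference of Aldoc was 1.89 without the second list (adjusted p = 0.00091), whose libraries include the highest value of the glycerol group labelled C3-/- and the lowest of the WT glycerol group. Slc37a4 (1.43 ± 0.40) and Ppargc1a (1.12 ± 0.30) were higher but lost their calls without WT glycerol library 2 (adjusted p of 0.0869 and 0.0827). Slc37a4 also lost it without glycerol library 3 (0.0964) or 4 (0.0651), and Ppargc1a without glycerol library 2 (0.0743) or 4 (0.0598), labelled C3-/-. After PBS 1 of the 99 genes was called, where 2.23% of all genes were, the sugar transporter Slc5a10, higher in libraries labelled C3-/- by 1.19 ± 0.26 (limma adjusted p = 0.0256), a call lost without any 1 WT PBS library or without PBS library 1, 2 or 3 labelled C3-/- (0.0612 to 0.106). By limma none of the 99 was called in the interaction, and 16 had an unadjusted p below 0.05, where 1889 of the 18035 genes tested had one.

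The genes whose levels were most like those of Pck1 over the 16 libraries, among 12514 genes averaging 50 or more, were Vmn1r18 (Pearson r 0.966), Tmie (0.962) and Vwce (0.956). Each had its lowest values in WT glycerol libraries: Tmie had a median of 350 in glycerol libraries and 370 in PBS libraries labelled C3-/-, and of 143 in WT glycerol libraries and 329 in WT PBS libraries. Those most like Pkm were Samd10 (0.935), Arhgdib (0.925) and Gja5 (0.922). These correlations describe libraries that share groups and lists, and no test was made of them.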

How the data were processed

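Kidney RNA of 16 libraries in 4 groups, taken from the titles, was analysed from 1 matrix of gene-level signal. In it the authors deposited a signal made by normalizing read counts with DESeq2. The submitters' processing notes name STAR (2.7.1), DESeq2, R (3.6.1) and build GRCm38, and Ensembl release 96 is the annotation per the file headers. The authors also deposited log2 fold changes, p-values and a Wald score per gene for 3 comparisons. The sign of the genotype table was checked against the group means and is C3-/- over WT. No source used here names the counting program, its strand setting or the depth. At a tolerance of 0.01, 1.78% to 2.11% of the values of a library were whole multiples of its smallest value above 0. That smallest value need not be 1 read, so the search could not recover the size of 1 read, and no count model was run.

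A pseudocount of 1 was added, and the log2 values of all 16 libraries were fitted in limma (3.58.1, under R 4.3.3) with a mean-variance trend and 1 coefficient per group. The 18035 genes with at least 10 in at least 4 libraries entered, Benjamini-Hochberg values are over all of them, and a gene was called below 0.05. Fold changes on this scale understate changes of low genes. The calculation was tested on simulated data. Genotype and glycerol comparisons share libraries, so they are not independent.

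The 9 genes, the pathway and marker lists, the alternatives and the rule for named genes were chosen with earlier results of these data known. Named beside the 9 are up to 4 genes per pathway list with the smallest p in WT, up to 3 called genes per list in each other comparison, isoenzyme partners, and the 3 genes most like Pck1 and Pkm. Gapdh was added after its values were seen. Promoters are RefSeq sequences on GRCm38.p6, found for all 9 genes, and exon lengths are from GENCODE M21. The marker lists not described with a result (endothelium, podocyte, macrophage, lymphocyte, fibroblast and skeletal muscle) had between 0 and 4 called genes in a comparison. In WT kidneys 4 of 8 macrophage markers (2 higher, 2 lower) and 3 of 6 fibroblast markers (1 higher, 2 lower) were called, beside 25.9% of all genes. Between the genotypes after glycerol 3 of 8 macrophage markers (1 higher, 2 lower) and 3 of 6 fibroblast markers (3 lower) were called, beside 11.2% of all genes. The part of these markers was not tested. Replicate numbers were not taken to pair libraries. Alternatives covered pseudocounts, filters, scaling, array weights, a replicate block, the second list, Y-linked level, leaving out each library, and the authors' tables.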

Additional observations from a re-analysis of the deposited data

Results flagged for a closer look

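Of the 36 combinations of the 9 genes and 4 groups, 5 had a library far from the other 3 of its group by Dixon's test at the 95% level, and chance flags about 1 in 20 groups. Hk2 was 320.9 normalized counts in glycerol library 1 labelled C3-/-, of the second list, against 25.9 to 57.1 in the other 3 libraries of the group. Pcx was 19104.7 in PBS library 4 labelled C3-/-, and 8933 to 10054 in the other 3. Ldha was 13767.4 in that same PBS library 4, and 9696 to 10212 in the other 3. This library alone in its group held Y-linked transcripts, at a mean log2 level of 10.2, against 0.27 to 0.71 in the other 3. Hk1 was 1899.7 in WT glycerol library 4, of the second list, and 3130 to 3169 in the other 3. Pfkfb3 was 1467.3 in WT glycerol library 1, and 953 to 1024 in the other 3. The part of the second list and of the Y-linked signal in these values was not tested.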

How the results depend on the processing

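The calls of Pck1, Fbp1, Pcx and Hk2 in WT kidneys, and of Pck1 and Pfkfb3 between the genotypes after glycerol, held under every alternative run. Leaving out 1 library gave 5 to 6 of the 9 genes in WT, 1 to 3 in kidneys labelled C3-/-, 2 to 5 between genotypes after glycerol, 0 in every fit after PBS and 0 to 1 in the interaction. Other pathway genes called ranged over 38 to 48, 8 to 27, 10 to 28, 0 to 3 and 0 to 1 in that order. Without the second list 68 pathway genes were called in WT, 32 in C3-/-, 43 between genotypes after glycerol, 20 after PBS and 12 in the interaction, and members numbered 3 after PBS and 3 in the interaction. Of all genes that fit called 56.2%, 23.3%, 30.4%, 19.5% and 10.4% in the same order. With list and Y-linked terms pathway calls were 67, 29, 48, 3 and 9, and member calls 4 in C3-/-, 8 after glycerol and 3 in the interaction. The shares of all genes called with these terms were 48.9%, 18.5%, 33.4%, 3.28% and 8.36%. Array weights, whose estimation gave a convergence warning, called 77, 48, 46, 45 and 26 pathway genes, 5 members after PBS and 4 in the interaction. The share of all genes called was not worked out for array weights, pseudocounts, quantile normalization, the replicate block or fits without 1 library. No result about the 9 genes or the pathway is read from the counts under those settings. A pseudocount of 8 called 1 member in the interaction and 2 pathway genes after PBS, as quantile normalization did (2). The replicate block called 1 member and 9 pathway genes in C3-/- and 0 pathway genes after PBS, where the main values are 2, 14 and 1. Numbers do not pair libraries here: of 24 same-numbered pairs 4 correlated above 0.1 (r from -0.69 to 0.38).

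Sign changes touched only uncalled differences. For C3-/- glycerol against PBS, Pck1 was 0.05 with median centring, 0.13 in the authors' table and -0.32 to 0.19 without 1 library. With array weights, without the second list and with list and Y-linked terms, Hk1 was 0.17, 0.12 and 0.22, Pfkp 0.10, 0.13 and 0.20, and Pfkfb3 0.01, 0.14 and 0.13. Pkm was 0.04 with array weights and 0.21 with the terms. Without 1 library Pfkp was -0.22 to 0.09 and Pkm -0.35 to 0.07. Between genotypes after glycerol Pkm was 0.11 with array weights and -0.37 to 0.08 without 1 library. After PBS Pck1 was 0.07 with quantile normalization and 0.35 with the terms, Pcx 0.48 with the terms and Pfkfb3 0.01 with array weights. Without 1 library, after PBS, Pfkfb3 was -0.18 to 0.04 and Fbp1 -0.01 to 0.14. The cause was not tested. Depth is unknown, so no limit from it can be given.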
